A study of Mus musculus with 32 samples.

Results

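Livers make primary bile acids from cholesterol, and 10 enzymes of that conversion were followed here through the RNA of 32 mouse livers. The members were taken as a named list of genes and not by their values, but with earlier results of these data known. Among them are the cytochromes P450 that hydroxylate the steroid ring (Cyp7a1, Cyp8b1, Cyp7b1, Cyp39a1), the side-chain hydroxylase Cyp27a1 and the muricholic acid enzyme Cyp2c70. The others are the ring-modifying enzymes Hsd3b7 and Akr1d1, and the conjugating enzymes Slc27a5 and Baat. The members are 10 of the 35523 annotated genes, and each passed the filter on low counts in every comparison. The 4 ring hydroxylases are protein-coding genes at chr4:6265612-6275633 (Cyp7a1, minus strand), chr9:121914356-121916305 (Cyp8b1, minus), chr3:18071950-18243338 (Cyp7b1, minus) and chr17:43667425-43751431 (Cyp39a1, plus) of GRCm38.

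The livers came from male and female mice lacking Nudt7 (Nudt7-/-, here KO), a gene for a peroxisomal enzyme that degrades coenzyme A, and from WT littermates. Each genotype and sex was fed a control diet (CD, 10% of energy from fat, 0% cholesterol) or a Western diet (WD, 41% of energy from fat, 0.2% cholesterol) from 6 weeks of age until harvest at 17 to 20 weeks, which gave 8 groups of 4 livers. The deletion removes exons 3 and 4 in every tissue. It goes back to 1 founder made in FVB zygotes and was crossed onto C57BL/6J, so the KO groups represent 1 allele. Mice were killed fed in the morning or after a fast, and the sources used here do not say which state these livers were in. The libraries held between 10140048 and 15825078 estimated counts (median 13000302). Levels are given as CPM, counts relative to the library's total after scaling by edgeR's trimmed mean of M values (TMM), as mean ± SD with n = 4 unless stated, and numbers after a group name identify its library.

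Bile acid synthesis starts in the hepatocyte along 2 routes. In the classical route Cyp7a1, the cholesterol 7α-hydroxylase, takes the rate-limiting step. In the alternative route sterols are first hydroxylated on the side chain, by Cyp27a1 in mitochondria among others, and the resulting oxysterols are 7α-hydroxylated by Cyp7b1 or, for 24-hydroxycholesterol, by Cyp39a1. Hsd3b7 and Akr1d1 then remodel the ring, and Cyp8b1 adds the 12α-hydroxyl group that separates cholic acid from chenodeoxycholic acid. In mice Cyp2c70 turns chenodeoxycholic acid into muricholic acids. Slc27a5 activates bile acids as coenzyme A esters and Baat joins them to taurine or glycine. The nuclear receptor FXR (Nr1h4) and its target SHP (Nr0b2) are known to repress the pathway, while HNF4α (Hnf4a) and LRH-1 (Nr5a2) are known activators of Cyp7a1 and Cyp8b1.

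The promoters of Cyp8b1 and Cyp2c70 are shown because these are the members with a wide spread and a high level, respectively, and both sequences hold the letters CAAAGTCC, a core that HNF4α can bind. Sequences run 5′ to 3′ from 250 bases before to 50 after the RefSeq start, in GRCm38.p6, and capitals mark CAAAGTCC, the LRH-1 type core CAAGGNC and the TATA box letters TATAAA, searched on both strands with the STAT type letters TTCNNNGAA.
Cyp8b1, chr9:121916256-121916555, minus strand: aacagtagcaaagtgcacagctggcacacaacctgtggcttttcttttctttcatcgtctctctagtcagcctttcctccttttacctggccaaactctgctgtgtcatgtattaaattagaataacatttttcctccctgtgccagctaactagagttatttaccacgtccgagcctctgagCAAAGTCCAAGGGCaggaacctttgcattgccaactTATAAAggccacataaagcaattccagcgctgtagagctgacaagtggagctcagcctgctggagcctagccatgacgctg
Cyp2c70, chr19:40187237-40187536, minus strand: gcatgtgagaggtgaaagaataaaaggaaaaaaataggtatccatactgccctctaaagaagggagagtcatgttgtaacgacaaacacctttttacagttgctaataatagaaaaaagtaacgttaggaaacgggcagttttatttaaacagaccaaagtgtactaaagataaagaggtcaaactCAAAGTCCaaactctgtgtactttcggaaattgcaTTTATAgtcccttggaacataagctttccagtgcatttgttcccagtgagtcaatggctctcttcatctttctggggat
In Cyp8b1, CAAAGTCC started 67 bases before the start and ran into CAAGGNC, which began with its last C at 60 bases before the start. The TATA letters stood at 31 bases before it. In Cyp2c70 CAAAGTCC started 64 bases before the start and the TATA letters, read on the other strand, 29 bases before it. Of 32851 promoters of this length, 467 (1.42%) held CAAAGTCC, 17.8% held CAAGGNC and 13.6% held TATAAA. The letters were chosen after the Cyp8b1 sequence had been read, and a match is a description only. Promoters of Cyp27a1, Akr1d1 and Hsd3b7, searched in the same way, held none of these letters apart from TTCNNNGAA in Hsd3b7, at 21 bases before the start and in 8.30% of all promoters. Those of the other 5 members were not analysed here.

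Compared per length, in TPM (the abundance of transcripts relative to all transcripts of a library), the members spanned a wide range of levels. Cyp2c70 had a mean of 645 TPM over the 32 livers and ranked 160 among all genes, followed by Slc27a5 at 560.2 TPM, Hsd3b7 at 409.6 TPM and Cyp27a1 at 265 TPM. Cyp8b1 (187 TPM), Baat (180.2 TPM) and Akr1d1 (167 TPM) had overlapping ranges. The 7α-hydroxylases were lowest, with Cyp7a1 at 68.6 TPM, Cyp7b1 at 53 TPM and Cyp39a1 at 29.7 TPM. The order of these last 3 differed between the sexes, as described below.

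How much the livers of a group differed also separated the members. Within groups the coefficient of variation of CPM had a median of 52.1% for Cyp7a1, and between 27.3% and 28.2% for Cyp8b1, Cyp7b1 and Cyp39a1. It was 8.64% for Hsd3b7, 10.4% for Baat and 10.8% for Slc27a5. Among the 3123 genes at least as abundant as the lowest member, the median was 10.3%, and 99.4% of them varied less within groups than Cyp7a1. From the lowest to the highest liver, Cyp7b1 spanned 25.7-fold, Cyp7a1 24-fold and Cyp39a1 18.2-fold, against 1.43-fold for Hsd3b7. These folds include the differences between groups.

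**Figure D1:**
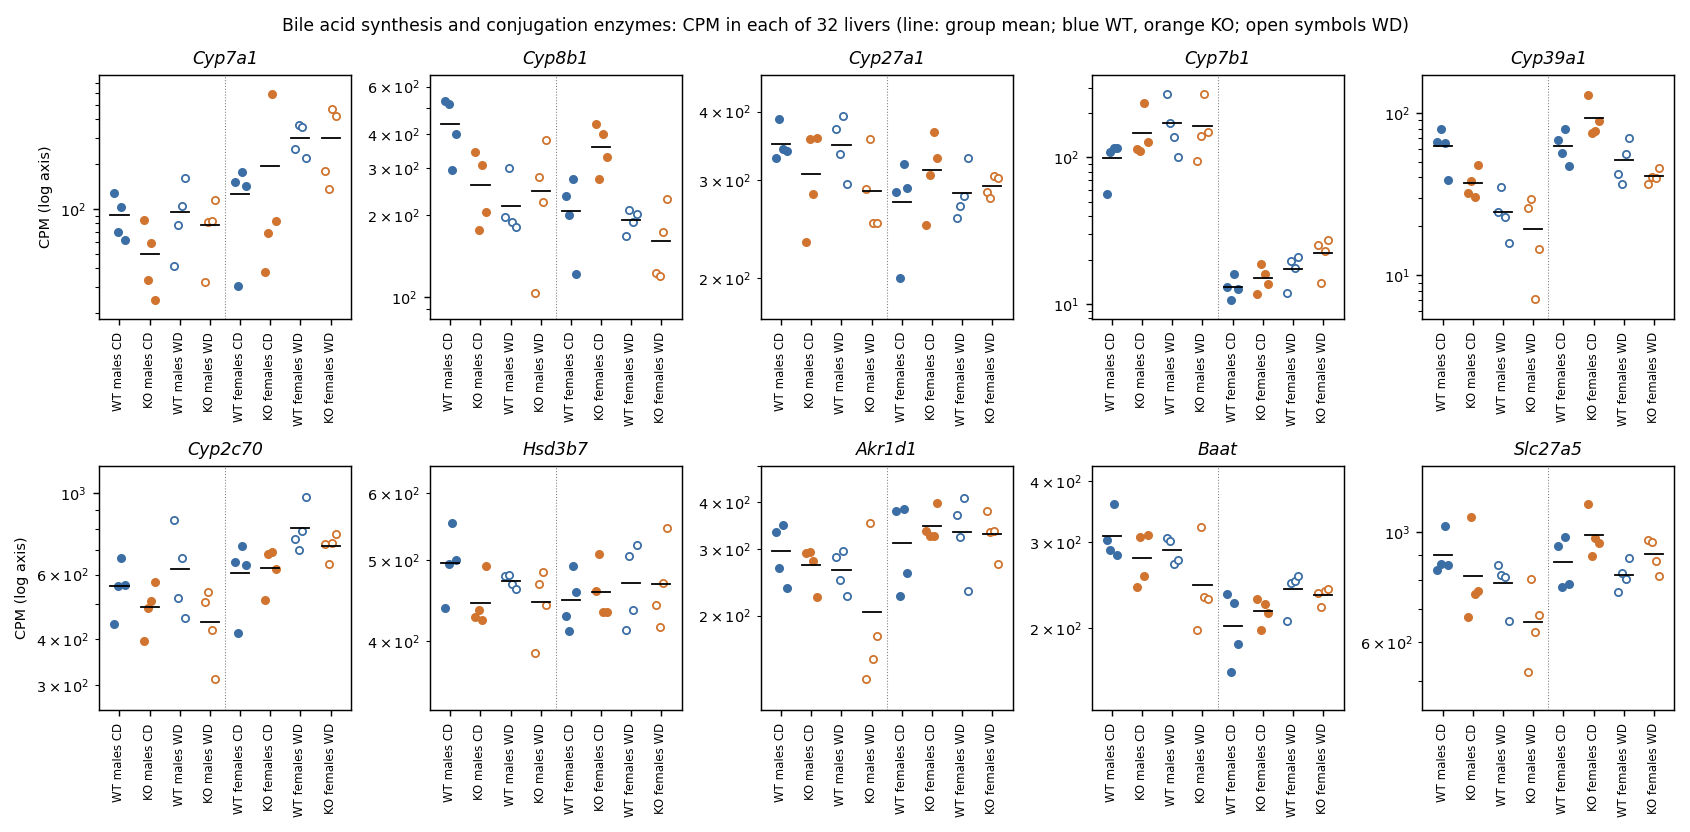
Level of each enzyme in every liver, as CPM on a log axis with a different range in each panel, by group. Points are livers (blue WT, orange KO, filled CD, open WD), black lines are group means, and the dotted line separates males from females. Cyp7b1 in females lies between 10.6 and 27.1 CPM, below every male liver (56.0 to 272 CPM).

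More members differed between the sexes than between the diets or genotypes. Averaged over both genotypes and diets in 1 model of all 32 libraries, 7 of 10 members passed an adjusted p of 0.05 (edgeR quasi-likelihood test, Benjamini-Hochberg over all genes), 5 higher and 2 lower in females. Of all 13539 genes tested, 31.6% passed, a high background for the members' count. The median difference of the 10 members was 0.09 on the log2 scale and that of all genes 0.02. Cyp7a1 (log2 difference 1.497 ± 0.34, SE), Cyp39a1 (0.87 ± 0.16), Cyp2c70 (0.38 ± 0.09), Akr1d1 (0.36 ± 0.11) and Slc27a5 (0.19 ± 0.07) were higher in females, and Cyp7b1 (-3.09 ± 0.17) and Baat (-0.33 ± 0.06) were lower. Adjusted p-values of these 7 ran from 1.56e-13 for Cyp7b1 to 0.035 for Slc27a5 (edgeR). The Slc27a5 call was lost without any 1 of 14 libraries, with adjusted p-values up to 0.0602. Cyp8b1, Cyp27a1 and Hsd3b7 did not pass, with log2 differences of -0.34 ± 0.15, -0.15 ± 0.07 and -0.01 ± 0.05. With library totals in place of TMM the members shifted by a median of 0.11 on the log2 scale toward females, all 7 calls and their directions held, and Hsd3b7, uncalled, moved to 0.10. Without KO females CD 3 the Cyp7a1 difference was 1.09 and still passed. Of 10 acinar markers, 2 (Amy2a5 and Cela2a) were higher in females in the mean sex effect. Sums of the 10 ran from 4.37 to 5402 CPM in female and 11.2 to 63.3 CPM in male livers. Clps was at 0 in the 4 livers of each male CD group. Sums above 200 CPM occurred in 4 female libraries only. On WD the median sums of females (5.69 CPM in WT, 7.06 CPM in KO) lay below those of males (21.4 and 12.5 CPM). Without the 4 libraries above 200 CPM, 7 members again passed, as did 4218 of 13361 genes. Of other markers, 2 of 6 Kupffer cell, 2 of 6 endothelial, 2 of 6 stellate, 2 of 5 tested lymphocyte and 1 of 5 tested cholangiocyte genes were higher in females, 2 of 8 hepatocyte markers were higher and 3 lower, 1 of 15 clock genes was higher and 2 lower, and 0 of 5 tested adipocyte genes passed. Their part in the sex differences was not tested.

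**Figure D2:**
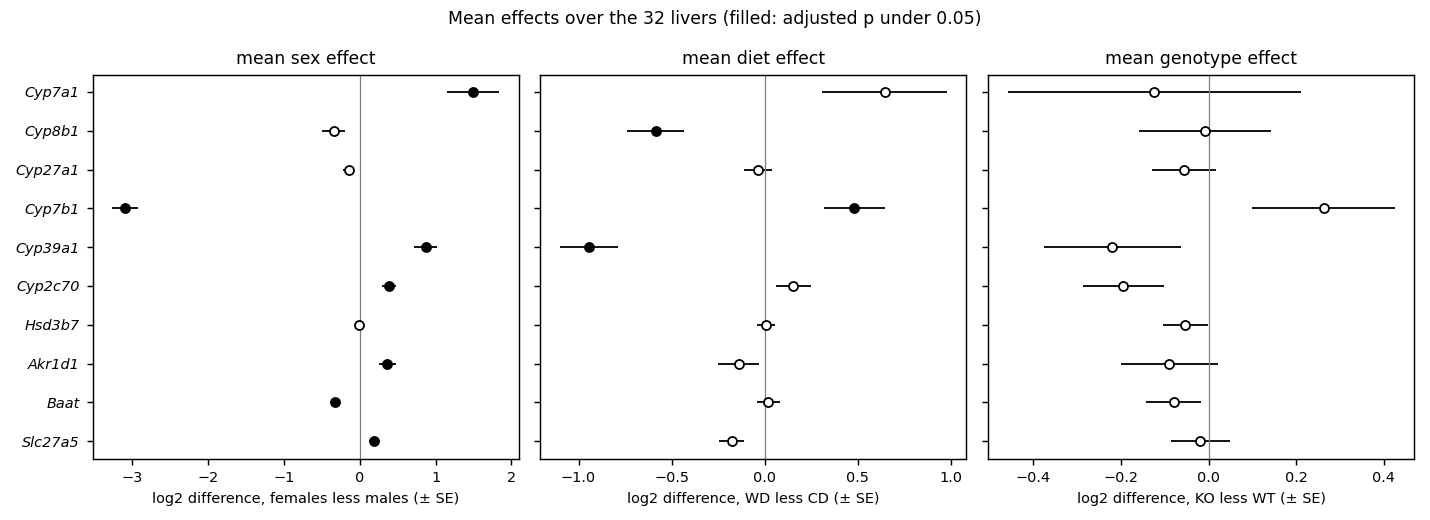
Mean sex, diet and genotype effects on the 10 enzymes, as log2 differences ± SE from the model of all 32 livers. Axes differ between panels, and filled symbols passed an adjusted p of 0.05 (7 for sex, 3 for diet, 0 for genotype).

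Cyp7b1, the oxysterol 7α-hydroxylase, showed the widest difference. On CD it was at 56.0, 109, 116 and 116 CPM in WT males and at 13.1, 10.6, 16.04 and 12.6 CPM in WT females. KO males on CD had 114, 111, 235 and 128 CPM and KO females 11.7, 18.6, 15.9 and 13.7 CPM. On WD the values were 272, 172, 139 and 101 CPM in WT males, 95.2, 139.6, 269.9 and 149 CPM in KO males, 11.8, 19.6, 17.5 and 20.7 CPM in WT females, and 25.3, 13.9, 22.9 and 27.1 CPM in KO females. No female liver reached the level of any male liver. Cyp7b1 was 7.51-fold higher in males than in females for WT on CD (adjusted p = 5.49e-05, edgeR), 9.67-fold for WT on WD (0.00113), 9.81-fold for KO on CD (0.000164) and 7.35-fold for KO on WD (0.00415). These calls held without each library in turn and under each of 10 other settings. The genes whose levels followed Cyp7b1 most closely over the 32 livers were Mup14 (Spearman's rho 0.94), Mup1 (0.94) and Nox4 (0.93), of 12204 genes compared. Group means were not removed here, nor for Cyp7a1 and Cyp8b1 below. Such values therefore include the differences between groups, for Cyp7b1 that between the sexes. Mup genes are near-identical copies of a multigene family of urinary proteins, and counts can be split between them.

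Cyp7a1 was not called on CD in either genotype and was the most variable member there. WT males on CD had 127, 70.0, 103 and 62.0 CPM and WT females 151, 30.6, 177 and 143 CPM. KO males had 83.7, 33.4, 59.2 and 24.6 CPM, whereas KO females had 38.0, 69.1, 590.3 and 82.8 CPM. The groups of both genotypes overlapped. On WD they did not: WT males had 41.3, 77.8, 104 and 161 CPM against 251, 364, 354 and 218 CPM in WT females, and KO males 32.4, 81.8, 82.5 and 115 CPM against 178, 136, 466 and 416 CPM in KO females. The difference on WD was 3.11-fold in WT (adjusted p = 0.0479, edgeR) and 3.82-fold in KO (adjusted p = 0.0783). The WT call was close to the threshold and was lost without any 1 of 6 libraries (WT males WD 2 and 3, WT females WD 1, 2, 3 and 4), with adjusted p-values up to 0.125. It was also lost under 5 of 10 other settings, among them no filter, the joint model, length offsets in edgeR and omission of acinar-rich libraries (up to 0.135). The KO comparison passed with DESeq2 (0.00592), which called 1677 genes there against 1228 with edgeR. Atp6v0d2 (Spearman's rho 0.78), Serpinb1a (0.78) and Aim2 (0.76) followed Cyp7a1 most closely over the 32 livers.

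Cyp39a1 differed by sex in 2 of the 4 comparisons. On CD, WT males had 65.8, 79.1, 65.7 and 38.5 CPM and WT females 68.3, 56.4, 79.7 and 46.9 CPM, and the groups overlapped. KO males had 32.2, 38.1, 30.1 and 47.9 CPM, and KO females 129.8, 75.6, 77.0 and 89.6 CPM, which do not overlap (2.51-fold, adjusted p = 0.00283, edgeR). On WD it was at 24.6, 35.0, 22.9 and 15.9 CPM in WT males against 41.8, 36.5, 56.0 and 70.3 CPM in WT females (2.10-fold, adjusted p = 0.0468). KO males on WD had 25.8, 29.6, 7.11 and 14.4 CPM, and KO females 36.2, 40.4, 39.7 and 46.1 CPM (2.10-fold, adjusted p = 0.146). The WT call on WD was lost without any 1 of 6 libraries (WT males WD 1, 3 and 4 and WT females WD 1, 3 and 4), with adjusted p-values up to 0.116, and under 3 of 10 other settings, among them no filter and leaving out the libraries rich in acinar transcripts (up to 0.176). Counts of Cyp39a1 came from 3 coding transcripts, Cyp39a1-203 (51.7%), Cyp39a1-204 (42.0%) and Cyp39a1-201 (6.25%).

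The make-up of 7α-hydroxylase RNA was unlike in males and females. Of the summed TPM of Cyp7a1, Cyp7b1 and Cyp39a1, Cyp7b1 had a mean share of between 46.9% and 69.5% in the 4 male groups, and between 7.26% and 10.8% in the 4 female groups. No female liver was above 16.4% and no male liver below 28.8%. Cyp7a1 held 74.2% ± 8.89 in WT females and 71.4% ± 11.2 in KO females on WD, against 24.4% ± 17.4 and 21.8% ± 10.7 in the corresponding males. Cyp39a1 held 40.8% ± 17.1 in WT females and 50.0% ± 26.3 in KO females on CD, and 18.6% ± 7.23 and 17.8% ± 8.22 on WD. On the same scale the log2 ratio of Cyp8b1 to Cyp7a1 was 2.93 ± 0.80 in WT and 3.33 ± 0.76 in KO males on CD, and 2.34 ± 1.19 and 2.43 ± 0.21 on WD. In females on CD it was 1.69 ± 1.49 in WT and 2.57 ± 1.77 in KO. Single female livers on CD ran from 0.34 to 3.82 in WT and from 0.29 to 4.61 in KO. Those of males on CD ran from 2.06 to 3.98 in WT and from 2.53 to 4.26 in KO. In females on WD the ratio was 0.19 ± 0.40 in WT and 0.13 ± 0.59 in KO. The shares and ratios were chosen after the levels had been seen and carry no test.

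**Figure D3:**
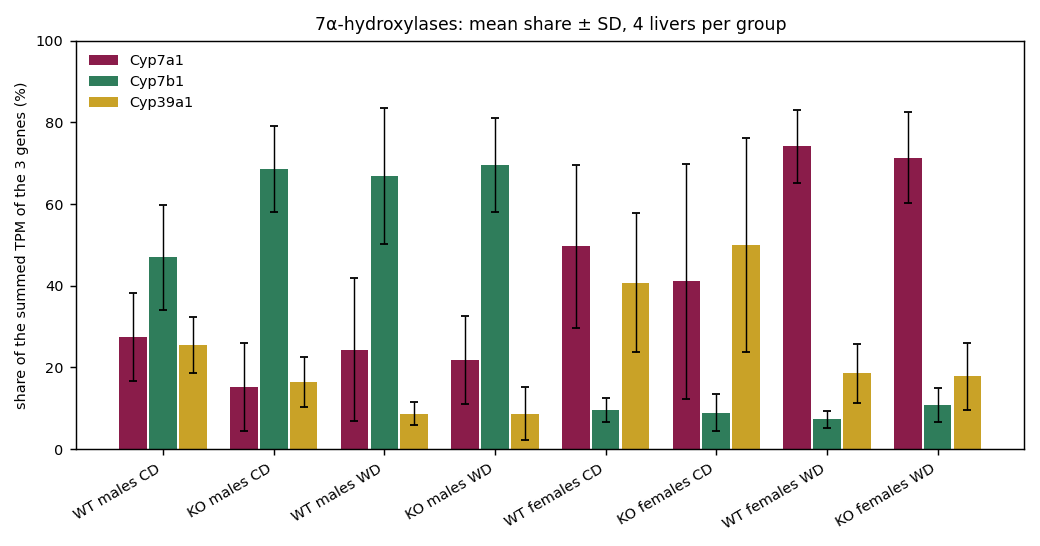
Mean share (%) of the summed TPM of 3 7α-hydroxylase genes, by group, with SD over 4 livers. Cyp7b1 is the largest share in each male group and the smallest in each female group.

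Among the later enzymes the differences between the sexes were smaller. Cyp2c70 passed in KO on WD, where males had 504, 538, 425 and 312 CPM and females 726, 639.8, 730.2 and 776 CPM, with every female liver above every male liver (1.61-fold, adjusted p = 0.0238, edgeR). That call was lost without KO males WD 3, KO females WD 1 or KO females WD 3, with adjusted p-values up to 0.0701, and under 2 of 10 other settings, one of them length offsets in edgeR (up to 0.0646). As Cyp2c70 belongs to the Cyp2c family of close paralogs, its estimated counts can include shared reads. The retained-intron transcript Cyp2c70-202 held 10.8% of them. Baat was at 303, 288, 359 and 283 CPM in WT males on CD and at 235, 163, 225 and 186 CPM in WT females, without overlap, but missed the threshold in the pairwise test (1.51-fold higher in males, adjusted p = 0.0541). DESeq2 called it (0.00227), but called 595 genes in that comparison against 280 with edgeR. Akr1d1 passed edgeR's pairwise test in none of the 4 comparisons of the sexes with all libraries (unadjusted p under 0.05 in 2), and was called in KO on WD by DESeq2 with length offsets (adjusted p = 0.0253) and in the edgeR model of all 32 libraries (0.042). In KO on CD it ranged from 224 to 296 CPM in males and from 326 to 399.5 CPM in females, without overlap (adjusted p = 0.137, edgeR), and in KO males on WD it was at 136, 352, 153 and 176 CPM, where library 2 stood above the other 3. Without that library the Akr1d1 difference between females and males in KO on WD went from 0.69 (adjusted p = 0.171, edgeR) to 1.08 (0.0015) on the log2 scale, and its diet difference in KO males from -0.41 (0.489) to -0.80 (0.0212). In WT on WD the Akr1d1 difference passed without WT females WD 4, one of the libraries rich in acinar transcripts (log2 0.48, adjusted p = 0.0296). Of all genes, 2.24% passed between the sexes in WT on CD, where 1 member passed, 9.64% in WT on WD (3 members), 6.66% in KO on CD (2 members) and 9.66% in KO on WD (2 members).

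Cyp8b1 and Cyp39a1 were lower on the Western diet. In the model of all libraries the mean difference of WD from CD was -0.59 ± 0.15 (log2, SE) for Cyp8b1 (adjusted p = 0.0078, edgeR), -0.94 ± 0.16 for Cyp39a1 (0.000168), and 0.48 ± 0.16 for Cyp7b1 (0.0384). The other 7 members did not pass, against 19.4% of all genes that did. The median difference was -0.01 both over the members and over all genes. The Cyp8b1 and Cyp39a1 calls held without each of the 32 libraries in turn and under 9 other settings. That of Cyp7b1 was lost without any 1 of 13 libraries, without a filter, with length offsets in edgeR (but not in DESeq2), and without the 4 libraries rich in acinar transcripts (adjusted p up to 0.132).

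Cyp8b1, the 12α-hydroxylase, stood at 532, 516, 296 and 401 CPM in WT males on CD and at 197, 299, 189.7 and 181 CPM on WD. Only WD library 2, at 299 CPM, reached into the CD range. This was a 2.00-fold decrease (log2 -0.997 ± 0.22, adjusted p = 0.0193, edgeR), lost without WT males WD 3 (adjusted p = 0.0579). KO females had 435, 273, 401 and 329 CPM on CD and 123, 119, 173 and 230.1 CPM on WD, with no overlap. This difference (log2 -1.15 ± 0.23) did not pass (adjusted p = 0.124, edgeR) but passed with DESeq2 (4.95e-05). DESeq2 called 233 genes there against 16 with edgeR. In KO males the values were 344, 177, 307 and 206 CPM on CD and 103, 277, 225 and 382 CPM on WD (log2 -0.05 ± 0.39). WT females had 236, 201, 273 and 122 CPM on CD and 168, 209.9, 189.9 and 203 CPM on WD (log2 -0.11 ± 0.21). Both pairs overlapped. Between the sexes Cyp8b1 differed without overlap in WT on CD, where every male liver was above every female liver, and missed the threshold (2.09-fold, adjusted p = 0.069, edgeR), while DESeq2 called it (0.00105). The genes most similar to Cyp8b1 over the 32 livers were Ndufs3 (Spearman's rho 0.66), Ulk1 (0.66) and Tmem62 (0.66).

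Cyp39a1, described above by library, fell on WD in WT males from 62.3 ± 17.0 to 24.6 ± 7.90 CPM, without overlap (2.51-fold, adjusted p = 0.0243, edgeR). It fell in KO females from 93.0 ± 25.3 to 40.6 ± 4.08 CPM, again without overlap (2.28-fold, adjusted p = 0.0293). KO males went from 37.1 ± 7.95 to 19.2 ± 10.3 CPM also without overlap (log2 -0.93 ± 0.40, adjusted p = 0.292), and WT females from 62.8 ± 14.3 to 51.1 ± 15.2 CPM (log2 -0.30 ± 0.22, adjusted p = 0.729). The WT male call was lost without WT males CD 1 or 3 or WT males WD 1 or 3 (adjusted p up to 0.0722) and without a filter (0.063). The KO female call was lost without KO females CD 4 or KO females WD 1, 2 or 3 (adjusted p up to 0.139), and under 2 of 10 other settings, one of them the model of all libraries (up to 0.0722). Of all genes, 13.7% passed for diet in WT males, where 2 members passed, and 0.125% in KO females, where 1 did. In KO males 2.6% of genes and 0 members passed, and in WT females 0.0785% of genes and 0 members. At an unadjusted p under 0.05 (edgeR) the counts of members in the latter 2 were 0 and 3. Of all genes, 2162 of 12407 and 1078 of 12737 were under that cutoff. DESeq2 called 0 members in both, and 805 of 12403 and 99 of 12732 genes.

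The diet comparison of Cyp7a1 turned on 1 liver. Its mean diet difference was 0.64 ± 0.34 on the log2 scale (adjusted p = 0.185, edgeR) with all libraries and 1.06 without KO females CD 3 (adjusted p = 0.00687). That liver had 590.3 CPM, the highest of 32, against 38.0 to 82.8 CPM in the rest of its group. It also carried pancreatic acinar transcripts, at 2366 CPM summed over 10 markers, had Nr1d1 (a clock repressor) at 2.79 CPM, the lowest of 32 livers where the next was 15.4 CPM, and had Nr0b2 at 9.84 CPM, also the lowest. These genes were looked up after its Cyp7a1 value had been seen, and their part in the result was not tested. Without the 4 libraries with more than 200 CPM of acinar transcripts (WT females CD 2 and 4, KO females CD 3 and WT females WD 4) the difference was 0.99 (adjusted p = 0.0124). At the other end, WT females CD 2, with 30.6 CPM, the lowest Cyp7a1 level of any female, had the highest acinar sum (5402 CPM). In WT females Cyp7a1 was at 125 ± 64.7 CPM on CD and 297 ± 73.0 CPM on WD, without overlap (2.37-fold, adjusted p = 0.572).

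Clock genes moved with diet beside these results. Dbp, a clock output gene, ranged from 0.57 to 1.32 CPM in WT males on CD and from 1.71 to 41.2 CPM on WD. KO females did not overlap either (0.85 to 1.59 CPM on CD, 4.99 to 35.08 CPM on WD). KO males (1.16 to 16.05 and 8.06 to 51.25 CPM) and WT females (0.89 to 4.01 and 1.10 to 5.85 CPM) overlapped between diets. In the mean effect 5 of 15 clock genes were higher and 4 lower on WD. Their part in the diet differences was not tested. Cyp2e1, a pericentral marker, was higher on WD (log2 0.64 ± 0.14, adjusted p = 0.00149, edgeR), and 6 of 8 periportal genes were lower against 2 of 8 pericentral genes higher, and the part of zonation was not tested either. Bulk RNA cannot separate fewer cells of a type from less RNA per cell. Of 8 hepatocyte markers 4 were lower on WD, and their sum ran from 64090 to 119400 CPM over all livers. Kupffer cell and macrophage markers summed to between 182 and 503.7 CPM, with 3 of 6 higher on WD. In the mean diet effect 1 of 10 acinar genes was lower, 1 of 5 tested adipocyte genes higher, 1 of 5 tested cholangiocyte genes higher and 1 lower, 0 of 6 endothelial and 0 of 6 stellate cell genes passed, and 1 of 5 tested lymphocyte genes was lower.

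Loss of Nudt7 changed no member past the threshold. Nudt7 itself was lower in KO libraries than in WT libraries of the same sex and diet without overlap, for example 371 to 597.5 CPM in WT males against 41.1 to 155 CPM in KO males on WD, and 122 to 236 against 21.2 to 45.2 CPM in females on CD (mean log2 difference -2.16 ± 0.22, adjusted p = 1.54e-06, edgeR). In the pairwise edgeR tests Nudt7 passed in females on CD (log2 -2.46 ± 0.27, adjusted p = 0.0159), but not in males on CD (-1.77 ± 0.52, 0.495), males on WD (-2.55 ± 0.42, 0.317) or females on WD (-1.84 ± 0.35, 0.316). A count of 0 members in those comparisons therefore says little, as the deleted gene missed the threshold too. Reads from the remaining exons still count toward it. Of all genes, 0.00814% passed in males on CD, 0.0162% in males on WD, 0.0314% in females on CD, 0.0156% in females on WD and 0.0886% in the mean effect, and 0 members passed in each. DESeq2 also called 0, where it called 32 of 9187, 54 of 12308, 26 of 12738, 62 of 12820 and 50 of 13531 genes in the same order. At an unadjusted p under 0.05 (edgeR) there were 2 members in males on CD, 0 in males on WD, 2 in females on CD, 0 in females on WD and 1 in the mean effect. Of all genes, 1197 of 12289, 1194 of 12319, 876 of 12753, 981 of 12824 and 1231 of 13539 were under that cutoff. The mean effects ran from -0.22 ± 0.16 for Cyp39a1 to 0.26 ± 0.16 for Cyp7b1 on the log2 scale.

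The 2 members behind the unadjusted counts on CD had opposite signs in the sexes. Cyp8b1 was at 436 ± 110.4 CPM in WT and 258 ± 79.9 CPM in KO males (log2 -0.75 ± 0.25, adjusted p = 0.495, edgeR), and at 208 ± 64.6 and 359.6 ± 72.6 CPM in females, where the ranges met without overlapping (272.9 CPM in the highest WT and 273.1 CPM in the lowest KO liver, log2 0.79 ± 0.24, adjusted p = 0.697). Cyp39a1 gave -0.75 ± 0.22 (0.495) and 0.56 ± 0.21 (0.701). The difference between the sexes was not tested. Both comparisons use the CD groups that also enter the diet comparisons above, so the genotype and diet values of these genes share those livers.

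The tests of differences between diet effects called none of the members. Passing genes made up 0.244% of all genes for females less males, 0.0591% for KO less WT in males, and 0% for KO less WT in females. At an unadjusted p under 0.05 (edgeR) there were 1 (Baat), 1 (Cyp8b1) and 2 members (Cyp8b1 and Cyp39a1). Of all 13539 genes, 1591, 1613 and 581 were under that cutoff, in the same order. DESeq2 called 0 members in each, and 204 of 13531, 72 of 7501 and 5 of 13531 genes. The diet difference of Cyp8b1 was 0.94 ± 0.43 higher in KO than in WT males (adjusted p = 0.383, edgeR) and differed by -1.05 ± 0.43 in KO from WT females (adjusted p = 1).

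Other genes of the pathway were taken from a fixed list. Of 14 tested genes for other synthesis steps, 8 were lower and 1 was higher in females in the mean sex effect, and 6 were higher and 1 was lower on WD, where 31.6% of all genes passed for sex and 19.4% for diet. Peroxisomal side-chain enzymes were among them. Scp2, the thiolase and sterol carrier, was lower in females (log2 -1.07 ± 0.07, adjusted p = 1.22e-12, edgeR). For example, it had 3117 ± 435 CPM in WT males and 1708 ± 363 CPM in WT females on CD. Acox2, the branched-chain acyl-CoA oxidase, was lower in females (log2 -0.49 ± 0.06) and higher on WD (0.41 ± 0.06). Por, the electron donor of microsomal P450 enzymes, was higher in females (0.82 ± 0.12) and higher on WD (0.95 ± 0.12). Of 13 regulators, 3 were higher and 1 lower in females, and 1, Ppara, was higher on WD (0.54 ± 0.10). FXR, Nr1h4, was lower in females (-0.20 ± 0.07), Nr1h2 (0.25 ± 0.06) and the FGF co-receptor Klb (0.32 ± 0.11) were higher. Hnf4a was at 522 ± 50.2 CPM in WT males on CD and 544 ± 32.7 CPM on WD, and Nr5a2 at 75.9 ± 8.69 and 89.1 ± 11.3 CPM, and neither passed in any comparison. Of 6 tested genes for taurine, Cdo1 (0.21 ± 0.07) and 1 other were higher in females, and Gclc (-0.35 ± 0.08) and Bhmt (-0.65 ± 0.21) were lower. Sex-predominant genes followed the labels, with 12 of 12 male genes (Nudt7 among them) lower and 14 of 14 female genes higher in females.

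Within groups, r was above 0 in 38 of 45 pairs of members and passed in 3 (permutation of livers within groups, 100000 resamples, two-sided, Benjamini-Hochberg over the 45). How often pairs of other genes gave such values was not computed, so these counts cannot be read as a trait of the members. Cyp27a1 and Cyp2c70 had r = 0.78 and rho = 0.80 (p = 1e-05 and 2e-05, adjusted p = 0.00045 for both, permutation), and r = 0.70 without the 2 livers farthest from the median of Cyp27a1. The value 1e-05 is the smallest the permutations can give. Baat and Slc27a5, the conjugating pair, had r = 0.76 and rho = 0.78 (p = 5e-05 and 2e-05, adjusted 0.00112 and 0.00045, permutation), and r = 0.70 without the 2 farthest. Cyp7b1 and Hsd3b7 had r = 0.59 and rho = 0.61 (p = 0.00098 and 0.00076, adjusted 0.0147 and 0.0114, permutation), and r = 0.49 without the 2 farthest, where it did not pass (adjusted p = 0.0924, permutation). On TPM this pair did not pass either (r = 0.48, adjusted p = 0.0666, permutation), whereas Cyp7a1 and Akr1d1 did (r = 0.52, adjusted p = 0.0202, against r = 0.25 and 0.416 on CPM). In females alone the 3 values of r were 0.93, 0.71 and 0.77, and in males alone 0.69, 0.79 and 0.54. Cyp7a1 and Cyp8b1, the enzymes of the classical route, gave r = 0.39 and rho = 0.48 (p = 0.043 and 0.0201, adjusted 0.165 and 0.101, permutation) and r = 0.51 without the 2 farthest (adjusted p = 0.16, permutation). Livers share the depth and RNA quality of their library, which a correlation of this kind includes.

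**Figure D4:**
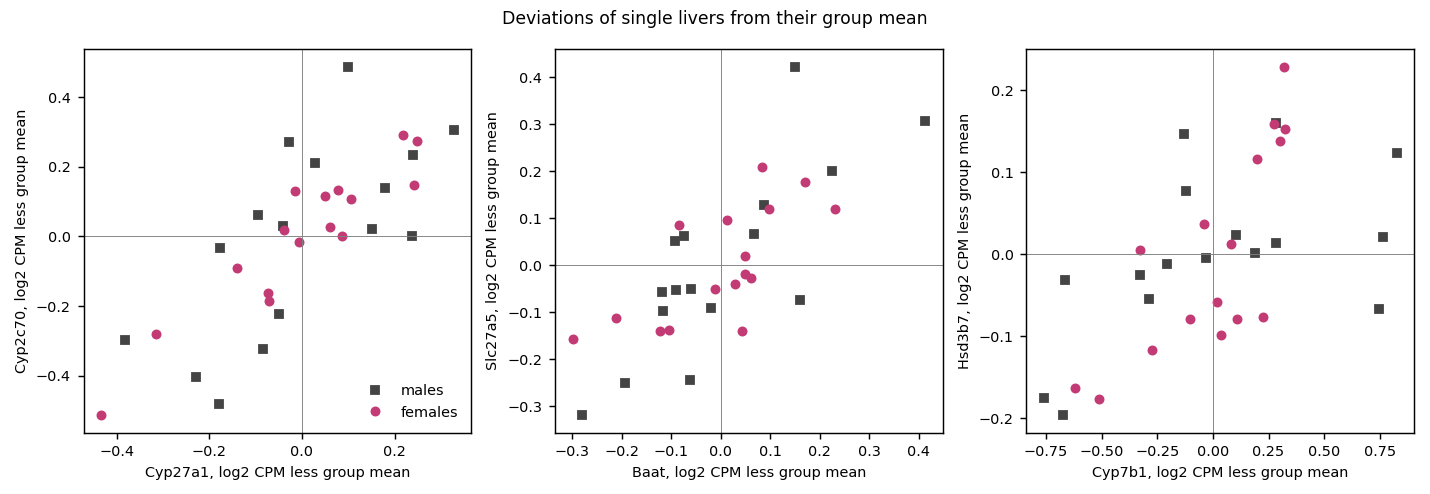
Deviation of each liver from its group mean (log2 CPM) for the 3 pairs of enzymes whose correlation passed, 32 livers each, squares males and circles females. Both members of each pair rise together in most livers, with r = 0.78, 0.76 and 0.59 from left to right.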

How the data were processed

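Liver RNA was sequenced as 50-base read pairs from poly(A)-selected libraries, and the authors quantified it with Salmon 1.3.0 on GRCm38. The deposited values are estimated counts and TPM per transcript, per the file headers. Here 115973 of 117135 transcripts were matched to genes of GENCODE vM21 and their estimated counts were summed per gene and rounded. Between 0.315% and 0.424% of counts lay outside that annotation. A gene was kept where 4 or more libraries held 10 or more counts, and was tested with edgeR 4.0.16 (TMM, quasi-likelihood, Benjamini-Hochberg adjusted p under 0.05), within the 8 libraries of each pair of groups, and for mean effects and their differences in 1 model of all 32. SE is the log2 difference divided by the root of F. The alternatives included DESeq2 1.42.0, which called more genes than the main edgeR run in every comparison. The procedure was also run on counts simulated from the spread that edgeR fitted to these data. Such counts follow the model's own assumptions, so that run does not show how far calls depend on single livers. No 2 libraries were duplicates: the lowest chi-square per gene between any pair was 11.1. Nothing in the sources says that same-numbered livers belong together. The edgeR p-values weigh differences between group means against the spread between livers within groups. The members and lists were chosen with earlier results of these data known. Named genes outside the members were those with the smallest p among called genes of each list, or the 3 most similar in level. Hnf4a, Nr5a2, Nr1d1, Nr0b2 and the ranges of Dbp were added after the values were seen.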

Additional observations from a re-analysis of the deposited data

Results flagged for a closer look

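Of 80 sets of 4 livers (10 enzymes in 8 groups), 6 held a liver that stood apart by its gap to the nearest value relative to the range. Chance flags about 1 in 20 sets. Cyp7a1 in KO females CD 3 was at 590.3 CPM, against 38.0 to 82.8 CPM in the other livers of its group. Cyp8b1 in WT males WD 2 was at 299 CPM, against 181 to 197 CPM. Cyp7b1 was low in WT males CD 1, at 56.0 CPM against 109 to 116 CPM, and high in KO males CD 3, at 235 CPM against 111 to 128 CPM. Akr1d1 in KO females CD 4 was at 399.5 CPM, against 326 to 336 CPM. Slc27a5 in WT males CD 3 was at 1030.0 CPM, against 841 to 864 CPM.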

How the results depend on the processing

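No called difference changed sign under any alternative run. With TMM the members called for diet were 2 in WT males, 1 without a filter and 0 to 2 without 1 library, and in KO males 0, with 0 to 1 without 1 library. Of all genes, 1678 of 12235 passed in WT males, 1603 of 21243 without a filter, and 323 of 12407 in KO males. Counts of all genes without 1 library are not given here. In KO females there was 1, with 2 under DESeq2 and under DESeq2 with length offsets, 0 with the replicate block, 0 in the model of all 32 libraries and 0 to 2 without 1 library. Of all genes 16 of 12840 passed there, 233 of 12578 with DESeq2 and 195 of 12826 with its length offsets. The replicate block gave 14 of 12840 genes and the model of all libraries 89 of 13539. Between the sexes there was 1 in WT on CD, with 2 without a filter, and 3 under DESeq2, DESeq2 with length offsets and the model of all libraries. Of all genes 280 of 12505 passed there, and 314 of 21706 without a filter. The other 3 settings gave 595 of 12011, 584 of 12253 and 615 of 13539 genes. In WT on WD there were 3, with 1 without a filter, 1 with the replicate block and 1 to 2 without 1 library. Of all genes 1207 of 12524 passed there, 1166 of 20924 without a filter and 1487 of 12524 with the block. In KO on WD there were 2, with 4 under DESeq2, 6 with its length offsets, 1 with edgeR length offsets, 5 in the model of all libraries and 1 to 4 without 1 library. Of all genes 1228 of 12708 passed there, 1677 of 12701 with DESeq2 and 1550 of 12700 with its length offsets. The edgeR length offsets gave 979 of 12708 genes, the model 1429 of 13539 and the replicate block 801 of 12708. In that comparison the replicate block gave 2 as well, but lost Cyp2c70 and gained Cyp7a1 (adjusted p = 0.0239, edgeR). The block also lost Cyp7a1 and Cyp39a1 between the sexes in WT on WD and Cyp39a1 for diet in KO females. With it the mean sex effect kept 7 calls and the mean diet effect 3, with 4236 and 2614 of all 13539 genes called. Same-numbered livers of different groups had a mean correlation of deviations of 0.0094, and 22 of 112 such pairs exceeded 0.1. Livers with other numbers had a mean of -0.0026, and their pairs above 0.1 were not counted. A mean over all pairs cannot show whether some of the livers were paired. Without 1 library the mean sex count ran from 6 to 8 and the mean diet count from 2 to 4. Leaving out libraries rich in acinar transcripts, chosen after seeing the data, gave 7 for sex and 4 for diet, with 4218 and 2378 of 13361 genes. With library totals in place of TMM, 81.4% of all sex calls were higher in females against 50.4% with TMM, and 65.8% of all diet calls were higher on WD against 44.4%. Of the 3 correlated pairs, 2 remained without the 2 farthest livers, and on TPM 3 passed, of which 2 were the same. The causes of these changes were not tested.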

Other observations

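Within groups, Cyp7a1 deviated together with Cyp27a1 in female livers (r = 0.76) and the opposite way in males (r = -0.60), and with Cyp2c70 likewise (r = 0.63 in females, -0.69 in males). Over all 32 livers the values of r were 0.21 and 0.02, and without the 4 libraries rich in acinar transcripts -0.26 and -0.40. All 4 of those libraries were from females, and r in females without them was not computed. These pairs were picked after the values had been seen, and the difference between the sexes was not tested.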
